A study of Mus musculus with 12 samples.

Results

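Heat shock proteins and molecular chaperones were followed in mouse bone marrow-derived macrophages on Affymetrix whole-transcript gene arrays. The genes were taken by symbol, as those that begin with Hspa, Hspb, Hsph, Hspd, Hspe, Hsp90 or Dnaj, those of the form Cct and a digit, and Tcp1. Each gene was represented by its brightest probe set annotated to 1 symbol. This gave 82 of the 19945 genes tested. They comprise 12 genes of the HSP70 family, 1 HSP110 gene and 2 HSP90 genes. The J proteins number 4 of type A, 13 of type B and 28 of type C. The rest are 10 genes of the cytosolic chaperonin TRiC, 2 of the mitochondrial chaperonin, 8 named as small heat shock proteins, and Hspbp1 and Hspbap1. Hspbp1 binds HSP70 and Hspbap1 binds a small heat shock protein, although both names begin with Hspb. Hspb11 was counted among the 8 by its name, although it is a subunit of the intraflagellar transport machinery. Hsf1, Hsp90ab1 and Hspa1b as a gene of its own were not analysed here.

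The 12 arrays form 4 groups of 3. They are Hdac3 -/- macrophages after 4 h with 100 ng/ml LPS (lipopolysaccharide, the outer membrane lipid of bacteria that activates Toll-like receptor 4), Hdac3 +/- macrophages after the same treatment, untreated Hdac3 -/- macrophages and untreated Hdac3 +/- macrophages. Hdac3 encodes a histone deacetylase that works in the NCoR and SMRT corepressor complexes. The +/- cells, labelled wild type, have lost 1 Hdac3 allele, so no group carries both. All cells came from C57BL/6 marrow grown to day 7 in medium conditioned by L929 cells, a source of macrophage growth factor, while the means by which Hdac3 was deleted was not found in the labels. The question of the series, as its title gives it, is what the inflammatory gene programme needs of Hdac3, and here the same design is read for the protein folding machinery.

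Chaperones hold unfolded proteins soluble and help them fold. HSP70 proteins bind and release short hydrophobic stretches in a cycle driven by ATP: J proteins (the Dnaj genes) deliver clients and start ATP hydrolysis, and nucleotide exchange factors such as the HSP110 proteins reset the cycle. HSP90 acts later on kinases and receptors, TRiC folds actin, tubulin and other cytosolic proteins inside a double ring, Hspd1 and Hspe1 form a similar chamber in mitochondria, and small heat shock proteins hold aggregating proteins without ATP. In macrophages the HSP90 of the endoplasmic reticulum (ER), Hsp90b1, is required for Toll-like receptors to fold. Heat shock factor 1 induces the cytosolic set through heat shock elements, and the unfolded protein response induces the ER set through ER stress elements.

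Values are log2 signals of a probe set, which can be compared between arrays but not between genes, and differences are given in log2 units ± 1 SE from limma, each group having 3 arrays. A gene was said to pass where its Benjamini-Hochberg adjusted p across the 19945 genes was under 0.05. Hdac3 itself read 6.91, 7.25 and 7.18 in the LPS-treated -/- arrays, against 8.90, 9.02 and 8.66 in the LPS-treated +/- arrays, and 7.39, 7.52 and 7.39 in the untreated -/- arrays, against 9.42, 9.10 and 8.98 in the untreated +/- arrays. The genotypes did not overlap in either state. Whether replicates are separate animals is not stated in the labels, so the p-values reflect the spread among these arrays, which may be technical. In the +/- groups it is not technical alone, as replicate 1 differs in sex from replicates 2 and 3, as given below. The array medians lay between 5.19 and 5.37. The macrophage markers, 9 of 9 measured, had a median of 11.8 to 11.9 in every group, and the medians of the other cell types' markers lay between 3.66 and 5.40. The highest single marker of the neutrophil list was at 9.23 in the LPS-treated -/- group, against 7.27 in the LPS-treated +/- group, and 7.07 in the untreated -/- group, against 5.49 in the untreated +/- group, and the part of these genes in the results was not tested.

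Replicate 1 of the Hdac3 +/- cells stood apart in both treatments. Xist, the transcript of the inactive X chromosome, read 3.20 with LPS and 3.93 untreated in these 2 arrays and 9.67 or more in the other 10, and the Y-linked Eif2s3y read 7.93 and 7.76 against at most 2.47. These 2 arrays are therefore male and the rest female by these transcripts. Counts over the 82 genes are given with and without them, and so are the counts of gene groups where they differ. In bulk RNA, fewer cells of a type and less RNA per cell cannot be told apart, which holds for every difference that follows.

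Promoter sequences are shown for genes that later results turn on, to place the 2 transcriptional inputs named above. Each is the 250 bases before the RefSeq start site on build GRCm38.p6, written along the gene's strand. The 68 chaperone genes with a promoter window had 87 windows, as some had more than 1. The searched heat shock element of 3 units, GAANNTTCNNGAA, was found on either strand in 0.603% of 32851 promoter windows of 300 bases. It was found in 6 of the 87 chaperone windows, those of 4 genes, Hspd1, Hspe1, Dnajb6 and Hsph1. The windows of Hspd1 and Hspe1 overlap on opposite strands and hold the same matches. The 2-unit forms of the element, which overlap it, were commoner. TTCNNGAA was found in 8.52% of windows and in 10 of the 87 (8 genes, Dnajb4 among them). GAANNTTC was found in 7.86% of windows and in 17 of the 87 (15 genes, Hspa1a, Dnaja1 and Hspb1 among them). Capitals mark the match. Dnajb4 lies at chr3:152193846-152194095 on the minus strand, Dnajb6 at chr5:29735648-29735897 on the plus strand and Hspd1 at chr1:55087933-55088182 on the minus strand. Dnajb4 and Dnajb6 are the genes furthest to the high and to the low side between genotypes after LPS, and Hspd1 carries overlapping matches.
Dnajb4: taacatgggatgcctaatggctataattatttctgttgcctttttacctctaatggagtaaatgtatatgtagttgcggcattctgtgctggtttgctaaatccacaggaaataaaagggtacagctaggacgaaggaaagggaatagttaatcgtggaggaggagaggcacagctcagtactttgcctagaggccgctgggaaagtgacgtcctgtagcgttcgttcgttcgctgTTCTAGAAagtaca
Dnajb6: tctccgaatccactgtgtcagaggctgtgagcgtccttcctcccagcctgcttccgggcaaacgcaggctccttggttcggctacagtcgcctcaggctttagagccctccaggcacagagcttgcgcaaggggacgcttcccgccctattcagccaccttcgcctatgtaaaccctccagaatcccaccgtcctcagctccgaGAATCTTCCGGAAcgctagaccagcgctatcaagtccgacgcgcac
Hspd1: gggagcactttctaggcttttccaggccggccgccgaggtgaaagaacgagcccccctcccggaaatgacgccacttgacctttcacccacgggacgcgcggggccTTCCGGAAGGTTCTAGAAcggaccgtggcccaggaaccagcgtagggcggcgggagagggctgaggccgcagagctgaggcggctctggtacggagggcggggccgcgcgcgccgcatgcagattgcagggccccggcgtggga

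In Hsph1 the match TTCTGGAAAGTTC began 37 bases after the start site. The ER stress element, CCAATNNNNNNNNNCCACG, was found on either strand in 0.119% of windows and in 3 of the 87 chaperone windows. These belong to 3 of the 68 chaperone genes, all of which encode ER proteins. They are Hspa5 at chr2:34771840-34772089 on the plus strand, Hsp90b1 at chr10:86705445-86705694 on the minus strand and Dnajc3 at chr14:118937682-118937931 on the plus strand. A match describes the letters and says nothing of binding.
Hspa5: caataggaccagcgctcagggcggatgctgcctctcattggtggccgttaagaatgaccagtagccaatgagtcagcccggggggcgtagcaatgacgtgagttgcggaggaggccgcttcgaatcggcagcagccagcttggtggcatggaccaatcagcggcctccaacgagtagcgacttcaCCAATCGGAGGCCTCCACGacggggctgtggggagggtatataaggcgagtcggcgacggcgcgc
Hsp90b1: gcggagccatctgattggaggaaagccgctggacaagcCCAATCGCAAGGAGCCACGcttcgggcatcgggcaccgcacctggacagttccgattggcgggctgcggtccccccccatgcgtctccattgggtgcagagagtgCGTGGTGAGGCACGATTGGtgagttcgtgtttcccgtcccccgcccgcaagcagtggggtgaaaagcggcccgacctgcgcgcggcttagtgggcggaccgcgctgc
Dnajc3: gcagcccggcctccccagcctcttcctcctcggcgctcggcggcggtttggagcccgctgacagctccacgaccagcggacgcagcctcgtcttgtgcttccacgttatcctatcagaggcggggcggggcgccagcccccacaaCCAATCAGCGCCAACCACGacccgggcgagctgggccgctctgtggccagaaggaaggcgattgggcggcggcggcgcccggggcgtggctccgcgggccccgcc

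Few chaperone genes ranged widely across the 4 groups. The gap between the highest and the lowest group mean had a median of 0.46 over the 82 genes, against 0.42 over all genes, and among genes with a mean signal of at least 6 it was 0.49 (56 chaperone genes), against 0.69 (8866 genes). A gap of at least 1, a 2-fold range, was reached by 7 of the 82 genes (8.54%) and by 15.5% of all genes. Those 7 were Dnajb4 (1.60), Dnajc9 (1.40), Dnajb9 (1.13), Dnajc15 (1.04), Dnajc21 (1.03), Dnajb14 (1.03) and Dnajc28 (1.00). All are J proteins, which are also most of the 82 genes, with 4 of type A, 13 of type B and 28 of type C. The spread between replicates was alike, with a median within-group SD of 0.204 for the chaperone genes and 0.202 for all genes. No HSP70, HSP90, TRiC or small heat shock protein gene reached a 2-fold range between group means. Hspa1a (0.98), Cct3 (0.96) and Hspa9 (0.93) fell just short of it.

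**Figure D1:**
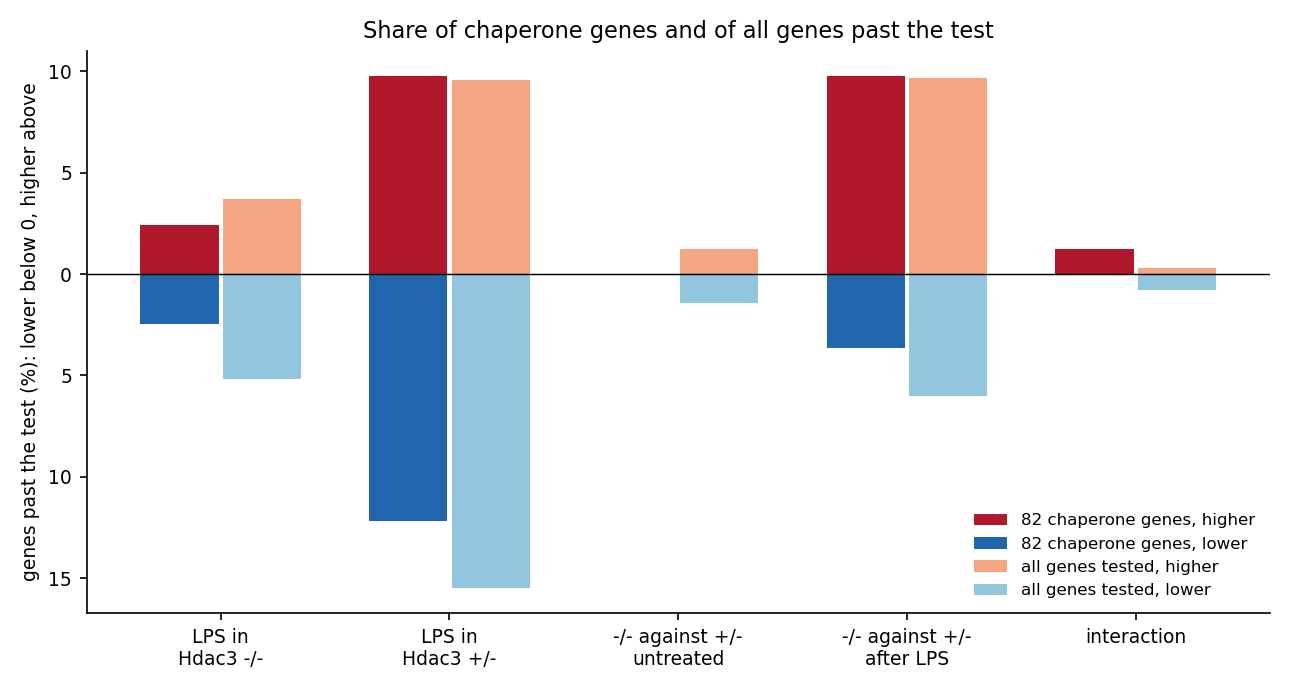
Share of the 82 chaperone genes (dark bars) and of all 19945 genes (pale bars) that passed in each of the 5 comparisons, in percent, with genes higher in the first-named condition above 0 and lower genes below. Among chaperone genes 9.76% rose and 12.2% fell with LPS in Hdac3 +/- cells, against 9.59% and 15.5% of all genes, and none passed between untreated genotypes.

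In LPS-treated against untreated Hdac3 -/- macrophages, 2 of the 82 chaperone genes rose and 2 fell, at 3.69% and 5.18% of all genes. An unadjusted p under 0.05 by limma was reached by 13 of the 82, and by 4002 of all 19945 genes. The median chaperone difference was 0.02, as over all genes (0.02). Dnajc1, an ER membrane J protein that docks on ribosomes, read 7.38, 7.44 and 7.29 with LPS, against 6.61, 6.71 and 6.63 untreated. It rose by 0.72 ± 0.12 (adjusted p = 0.0018), the groups do not overlap, and it passed under each of 25 alternative settings. Cct3, the gamma subunit of TRiC, read 10.45, 10.15 and 10.67 with LPS, against 9.61, 9.82 and 9.13 untreated, a rise of 0.90 ± 0.23 (adjusted p = 0.0246). It did not pass without -/- untreated replicate 1 or 3 or -/- LPS replicate 1 or 3, with adjusted p of 0.061 to 0.116.

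The 2 genes that fell in -/- cells were Dnajc28 and Hspb6. Dnajc28 read 4.80, 4.12 and 4.70 with LPS, against 5.41, 5.12 and 5.62 untreated, a difference of -0.85 ± 0.22 (adjusted p = 0.0287). Hspb6, a small heat shock protein best known from muscle, read 6.18, 5.71 and 6.10 with LPS, against 6.81, 6.43 and 6.63 untreated, a difference of -0.63 ± 0.16 (adjusted p = 0.0236). Neither passed without -/- untreated replicate 1 or 3 or -/- LPS replicate 2 (adjusted p 0.0716 to 0.137). Dnajb14 was near the threshold at -0.65 ± 0.19 (adjusted p = 0.055) and passed without the 2 male arrays (adjusted p = 0.0471), when 2 chaperone genes rose and 3 fell, at 4.00% and 5.67% of all genes. After cyclic loess normalization 3 rose and 2 fell, and over all genes 925 rose and 802 fell, against 736 and 1033 as deposited. The other role groups had no gene that passed: 0 of 12 HSP70 genes, 0 of 4 type A and 0 of 13 type B J proteins and neither mitochondrial chaperonin gene. All 10 TRiC genes had positive differences, of 0.12 to 0.90 with a median of 0.26, but Cct3 alone passed.

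In LPS-treated against untreated Hdac3 +/- macrophages, 8 of the 82 chaperone genes rose and 10 fell, at 9.59% and 15.5% of all genes, and the median difference was 0.01, against 0.08 over all genes. Among genes with a mean signal of at least 6, 5 of 56 chaperone genes rose and 9 fell, at 12.3% and 29.0% of all such genes. The largest rises were those of Dnaja2 and Hspa1a, and the largest falls those of Dnajc9 and Dnajb14. Without the 2 male arrays 8 rose and 10 fell, at 9.61% and 14.9% of all genes, of which 6 and 8 were the same genes. With the same-numbered +/- arrays taken as pairs, which the labels do not state, by a replicate block within genotype, 11 rose and 12 fell. Over all genes 10.3% rose and 17.2% fell. No chaperone call was lost, and those gained were rises of Cct3 (0.63, adjusted p = 0.0437), Hspa1l (0.56, 0.031) and Hspb2 (0.52, 0.0202) and falls of Dnajb9 (-0.74, 0.0345) and Hspb6 (-0.46, 0.0364). After cyclic loess normalization 6 rose and 7 fell, and over all genes 2063 rose and 2134 fell, against 1912 and 3085 as deposited.

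Among type A J proteins, the closest relatives of the bacterial DnaJ, 2 of 4 rose in +/- cells, where 9.59% of all genes rose. Dnaja2, a cytosolic partner of HSP70, read 10.45, 9.90 and 10.35 with LPS, against 9.50, 9.28 and 8.92 untreated. All 3 treated arrays lay above all 3 untreated ones, the rise was 1.00 ± 0.17 or 2.0-fold (adjusted p = 7.67e-04), and it passed under all 25 alternatives. Dnaja1, its close relative, read 9.84, 10.23 and 9.98 with LPS, against 9.49, 9.20 and 9.32 untreated, a rise of 0.68 ± 0.13 (adjusted p = 0.0021) that also passed under all 25. The brightest Dnaja1 probe set is numbered among probe sets of chromosome 5 while the gene lies on chromosome 4, so that signal from a near-identical copy is possible, and the probe set placed at the gene passed as well. In -/- cells the same genes differed by 0.37 ± 0.17 (Dnaja2, adjusted p = 0.25) and 0.34 ± 0.13 (Dnaja1, adjusted p = 0.155). The Dnaja1 probe set placed at the gene differed alike in both genotypes, by 0.49 ± 0.18 in -/- cells and 0.51 ± 0.18 in +/- cells. Its interaction term was -0.03 ± 0.25.

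The heat-inducible HSP70 gene rose as well. Hspa1a read 7.00, 8.15 and 6.85 in LPS-treated +/- arrays, against 6.34, 6.55 and 6.16 in untreated +/- arrays, a rise of 0.98 ± 0.29 (adjusted p = 0.0256). The groups do not overlap, but +/- LPS replicate 2 stands more than 1 log2 unit above the other treated arrays. Without it the rise was 0.57 (adjusted p = 0.0945), and without +/- untreated replicate 1 or 3 the adjusted p was 0.0604 and 0.09. Hspa1a and Hspa1b are near-identical neighbours and a further probe set annotated to both was left out, so the value may hold both. Of the 9 classical heat shock factor 1 targets measured, 2 rose (Hspa1a and Dnaja1) and 1 fell (Hsph1), at 9.59% and 15.5% of all genes. Their median was -0.21, against 0.08 over all genes. Without the 2 male arrays Hsph1 did not pass (adjusted p = 0.112). In that list Dnajb1, the main cytosolic J protein of the heat response, differed by -0.29 ± 0.13 and the constitutive Hspa8 by -0.37 ± 0.14, neither of which passed (adjusted p = 0.112 and 0.0684). The brightest Hspa8 probe set is numbered among those of chromosome 5, away from the gene on chromosome 9.

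The 13 type B J proteins split. Dnajb6, which suppresses aggregation of polyglutamine proteins, read 7.64, 6.89 and 7.53 in LPS-treated +/- arrays, against 6.61, 6.72 and 6.74 in untreated +/- arrays, a rise of 0.66 ± 0.20 (adjusted p = 0.0278). It did not pass without +/- untreated replicate 1 or 3 or +/- LPS replicate 1 or 3 (adjusted p 0.06 to 0.104), nor without the 2 male arrays together (0.167). Dnajb14, an ER membrane J protein, read 6.43, 6.62 and 6.59 with LPS, against 7.27, 7.49 and 7.97 untreated, a difference of -1.03 ± 0.19 or 2.04-fold lower (adjusted p = 0.0016), which passed under all 25 alternatives. Dnajb4, a cytosolic J protein, read 7.28, 7.71 and 7.10 with LPS, against 8.08, 8.09 and 8.17 untreated, a difference of -0.75 ± 0.19 (adjusted p = 0.0088). It kept its direction but not its call after quantile or cyclic loess normalization (-0.50 and -0.49, adjusted p = 0.0589 and 0.0683).

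Of 28 type C J proteins, which share little beyond the J domain, 1 rose and 4 fell in +/- cells. Over all genes 9.59% rose and 15.5% fell. Dnajc9, a nuclear J protein that also binds histones H3 and H4, had the largest fall of any chaperone gene. It read 7.44, 6.70 and 6.85 with LPS, against 8.42, 7.54 and 8.88 untreated, a difference of -1.29 ± 0.29 or 2.44-fold lower (adjusted p = 0.0052) that passed under all 25 alternatives. Its groups do not overlap, with +/- untreated replicate 2 at the low end. In -/- cells Dnajc9 read 7.42, 7.48 and 7.73 with LPS, against 8.54, 8.62 and 8.03 untreated, groups that do not overlap either, and the difference of -0.86 ± 0.29 did not pass (adjusted p = 0.093). Dnajc3, an ER protein that restrains the kinase Eif2ak3, read 9.33, 9.03 and 8.91 with LPS, against 9.73, 9.89 and 9.82 untreated, a difference of -0.72 ± 0.14 (adjusted p = 0.0022) that passed under all 25. Dnajc28 differed by -0.80 ± 0.22 and Dnajc4 by -0.48 ± 0.13 (adjusted p = 0.0178 and 0.0152). Dnajc28 did not pass without +/- untreated replicate 2 or 3 or +/- LPS replicate 3 (0.0607 to 0.0759), and Dnajc4 not without +/- LPS replicate 2 (0.055) or after quantile or cyclic loess normalization (0.293 and 0.25). Dnajc1 rose by 0.62 ± 0.12 in +/- cells (adjusted p = 0.002), from arrays of 7.21, 7.28 and 7.27 with LPS and 6.66, 6.45 and 6.79 untreated, and is with Dnajc28 1 of the 2 genes that passed in both genotypes.

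**Figure D2:**
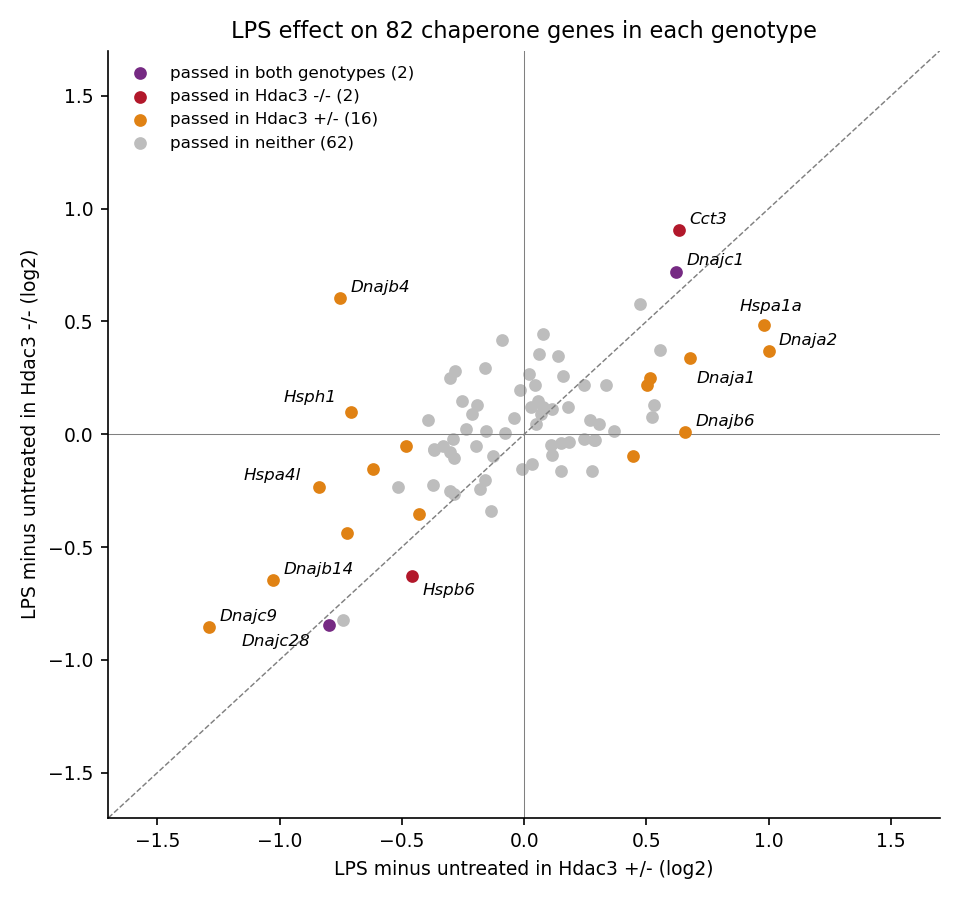
LPS effect (LPS minus untreated, log2) of each of the 82 chaperone genes in Hdac3 -/- cells (vertical axis) against Hdac3 +/- cells (horizontal axis), coloured by where it passed, with the dashed line marking equal effects. Dnajc1 and Dnajc28 passed in both genotypes, Dnajb4 lies in the upper left at 0.60 and -0.75, and Dnajb6 lies on the horizontal axis at 0.66.

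Among HSP70 exchange factors and HSP90 genes, 3 fell in +/- cells, where 15.5% of all genes fell. Hspa4l, an exchange factor of the HSP110 kind named with the HSP70 family, read 6.88, 6.46 and 6.37 with LPS, against 7.12, 7.43 and 7.68 untreated, a difference of -0.84 ± 0.19 (adjusted p = 0.0046) that passed under all 25 alternatives. Hspa14, an HSP70 of the ribosome, fell by 0.62 (adjusted p = 0.035) and did not pass without +/- untreated replicate 1 or 3 or +/- LPS replicate 3 (0.125 to 0.143) or without the 2 male arrays (0.126). After quantile or cyclic loess normalization Hspa14 stood at -0.34 in both, and did not pass (0.213 and 0.23). Hsph1, the HSP110 gene, was barely past the threshold at -0.71 ± 0.25 (adjusted p = 0.0495) and lost the call in 11 of 25 alternatives, among them without +/- untreated replicate 1 or 3, +/- LPS replicate 2 or 3, -/- untreated replicate 1 or 2 or -/- LPS replicate 1 (0.0539 to 0.191). Hsp90b1, the ER HSP90, read 11.67, 11.49 and 11.34 with LPS, against 11.96, 11.87 and 11.97 untreated, a difference of -0.43 ± 0.13 (adjusted p = 0.0251), lost without +/- untreated replicate 1 or 3 or +/- LPS replicate 2 or 3 (0.0587 to 0.102). The LPS-treated and untreated arrays of Hsp90b1 do not overlap in either genotype, and in -/- cells the difference was -0.35 ± 0.13 (adjusted p = 0.118).

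Hspa5, the ER HSP70 known as BiP, did not pass. It read 12.16, 12.26 and 12.06 in LPS-treated +/- arrays, against 12.14, 12.09 and 11.79 in untreated ones, a difference of 0.15 ± 0.14 with a 95% interval from -0.15 to 0.45 (adjusted p = 0.441). Of the 12 chaperone genes of the ER, 1 rose (Dnajc1) and 3 fell (Dnajb14, Dnajc3 and Hsp90b1) in +/- cells, against 1 and 0 in -/- cells. Over all genes 9.59% rose and 15.5% fell in +/- cells, against 3.69% and 5.18% in -/- cells. Among those with a mean signal of at least 6, 29.0% fell in +/- cells and 10.2% in -/- cells. Of the 3 genes with an ER stress element printed above, Dnajc3 and Hsp90b1 fell and Hspa5 did not pass. The cytosolic HSP90 gene Hsp90aa1 differed by -0.09 ± 0.21 in +/- cells (adjusted p = 0.767).

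Small heat shock proteins and a TRiC relative gave the remaining rises, all of them dim. Hspb8, which works with Bag3 in autophagy of misfolded proteins, rose by 0.44 ± 0.13 and Hspb7 by 0.52 ± 0.17 (adjusted p = 0.0215 and 0.0424), at mean signals under 6. Hspb7 lost the call in 14 of 23 alternatives, among them without any 1 of the -/- arrays, +/- untreated replicate 2 or 3 or +/- LPS replicate 1 or 3 (0.0515 to 0.182). Hspb8 lost it in 7 of 23, among them without +/- untreated replicate 1 or 3 or +/- LPS replicate 3 (0.0553 to 0.0675). Hspb1, known as Hsp27, read 6.76, 5.70 and 5.71 with LPS, against 5.28, 5.61 and 5.70 untreated, with the +/- replicate 1 array alone high, and 0.53 ± 0.26 did not pass (adjusted p = 0.146). Its brightest probe set is numbered on chromosome 13, away from the gene on chromosome 5, and the one placed at the gene differed by 0.26. Cct8l1 rose by 0.50 ± 0.13 (adjusted p = 0.0093) and did not pass after quantile or cyclic loess normalization (0.0587 and 0.0825). Of the TRiC genes none but Cct8l1 passed in +/- cells with all arrays, where Cct3 stood at 0.63 ± 0.23 (adjusted p = 0.0594). Cct3 passed without the 2 male arrays (0.77, adjusted p = 0.0383) and with the block. Without the male arrays Hspb8 did not pass (0.0974), while Hspb2 rose (0.61, 0.0498) and Hspb11 and Hspbap1 fell (-0.64 and -0.54, 0.0111 and 0.043).

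Between the untreated genotypes no chaperone gene passed. Of the 82 genes 0 were higher and 0 lower in untreated -/- than +/- arrays by limma, at 1.22% and 1.44% of all genes. An unadjusted p under 0.05 was reached by 8 of the 82, and by 2534 of all 19945 genes. The counts of chaperone genes that passed were 0 under every alternative, also without the 2 male arrays, when 0.782% and 1.17% of all genes passed. The median difference was 0.07, against 0.01 over all genes, and for 81 of the 82 genes the 95% interval lay within 2-fold of no difference. The exception, Dnajc15, a mitochondrial inner membrane J protein that restrains respiratory complex I, read 8.29, 7.63 and 6.93 in -/- arrays, against 6.70, 6.55 and 7.39 in +/- arrays. Its difference of 0.74 ± 0.31 had an interval from 0.08 to 1.39 (adjusted p = 0.31). Hspa5, Hspa8, Tcp1 and Hsp90b1 differed by at most 0.07 in size, and their intervals reached no further than 0.37.

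After LPS, 8 chaperone genes were higher and 3 lower in Hdac3 -/- than in +/- macrophages, at 9.69% and 5.99% of all genes. The median difference was 0.18, against -0.04 over all genes, and among genes with a mean signal of at least 6 it was 0.32, against 0.17. In that brighter set 7 of 56 chaperone genes were higher and 2 lower, at 18.4% and 9.85% of all such genes. This comparison shares its arrays with both LPS comparisons. Over all probe sets the interquartile ranges were 3.50, 3.39 and 3.70 in the -/- LPS arrays, against 3.49, 3.19 and 3.20 in the +/- LPS arrays, of which replicates 2 and 3 are the narrowest of the 12. After cyclic loess normalization, which evens out such differences, 3 chaperone genes were higher and 4 lower, and over all genes 1240 were higher and 1448 lower, against 1932 and 1195 as deposited.

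The count of higher genes moved with single arrays. Without the 2 male arrays 17 chaperone genes were higher and 2 lower, at 11.0% and 6.41% of all genes, and 7 of the 8 were among the 17. Without +/- LPS replicate 1 alone there were 14, without +/- LPS replicate 2 there were 3, and without +/- LPS replicate 3, -/- LPS replicate 1 or -/- LPS replicate 3 there were 2. The count over all genes moved with the same arrays. It was 1932 with all arrays, 2176 without +/- LPS replicate 1 and 1511 without +/- LPS replicate 2. Without +/- LPS replicate 3, -/- LPS replicate 1 or -/- LPS replicate 3 it was 984, 1170 and 910. Of the 11 genes, Dnajb4 and Hspa9 alone passed under all 24 alternatives.

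Dnajb4 had the largest difference of all chaperone genes. It read 8.78, 8.93 and 9.16 in the LPS-treated -/- arrays, against 7.28, 7.71 and 7.10 in the LPS-treated +/- arrays, more than 1 log2 unit apart between the nearest arrays. The difference was 1.60 ± 0.19 or 3.02-fold (adjusted p = 6.91e-05), with an adjusted p of 4e-05 to 8.35e-04 over the alternatives. Untreated arrays read 8.70, 8.08 and 8.28 in -/- cells, against 8.08, 8.09 and 8.17 in +/- cells, a difference of 0.24 ± 0.19 (adjusted p = 0.698). With LPS, Dnajb4 fell in +/- cells as given above, while in -/- cells the LPS-treated arrays all lay above the untreated ones and the difference of 0.60 ± 0.19 did not pass (adjusted p = 0.0614). It was the only 1 of the 82 genes whose LPS effect differed between the genotypes, as the interaction term tested it: 1.35 ± 0.26 (95% interval 0.79 to 1.92, adjusted p = 0.025), where 0.306% of all genes passed upwards and 0.777% downwards. The interaction did not pass with the replicate block over all 4 groups (adjusted p = 0.0581), without the 2 male arrays (0.0684), or without +/- untreated replicate 3 (0.0586), +/- LPS replicate 3 (0.07), -/- untreated replicate 2 (0.053) or 3 (0.062) or -/- LPS replicate 3 (0.0837). Without the male arrays 0.552% of all genes passed upwards and 0.597% downwards. The Dnajb4 interaction stayed between 1.16 and 1.53 over the alternatives.

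**Figure D3:**
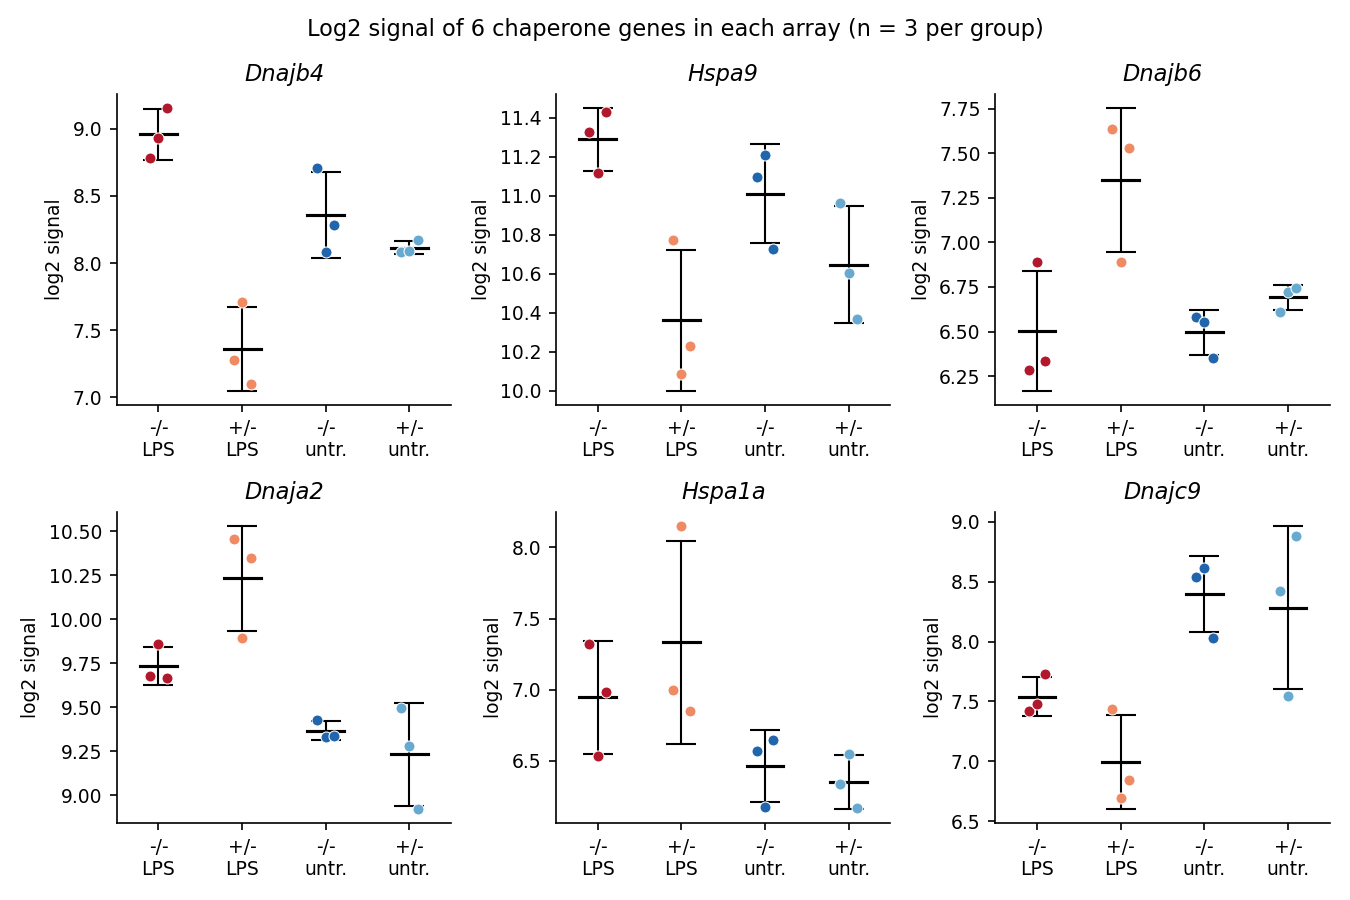
Log2 signal of 6 chaperone genes in each array, with points for the 3 arrays of a group, a horizontal bar for the mean and whiskers for ± 1 SD, and the vertical axes not starting at 0. Dnajb4 is highest in Hdac3 -/- cells with LPS and lowest in +/- cells with LPS, Dnajb6 and Dnaja2 are highest in +/- cells with LPS, and Dnajc9 is lower with LPS in both genotypes.

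Of the 8 chaperone genes of mitochondria, 3 were higher and 0 lower in -/- cells after LPS, where 9.69% of all genes were higher. All 8 differences were positive, with a median of 0.54. Among all genes with a mean signal of at least 6, 18.4% were higher and the median was 0.17. Hspa9, the mitochondrial HSP70 that pulls proteins across the inner membrane, read 11.32, 11.11 and 11.43 in LPS-treated -/- arrays, against 10.77, 10.08 and 10.23 in LPS-treated +/- arrays. The groups do not overlap and the difference was 0.93 ± 0.20 or 1.90-fold (adjusted p = 0.0073). Its J protein partner Dnaja3 read 8.16, 7.96 and 8.16, against 7.79, 7.52 and 7.34, a difference of 0.54 ± 0.16 (adjusted p = 0.0311), and Dnajc15 read 7.97, 7.33 and 7.31, against 6.58, 6.75 and 6.39, a difference of 0.96 ± 0.31 (adjusted p = 0.0476). Hspd1, the large ring subunit of the mitochondrial chaperonin, read 10.49, 10.11 and 10.83 in -/- arrays, against 9.92, 9.82 and 9.25 in +/- arrays, a difference of 0.81 ± 0.29 that did not pass (adjusted p = 0.08) but did in 4 of 24 alternatives, among them without the 2 male arrays (0.0257). Its probe set is numbered on chromosome 11 and not with the gene on chromosome 1, and the probe set at the gene differed by 0.66. Its lid subunit Hspe1, also read by a probe set away from the gene, differed by 0.27 ± 0.25 (adjusted p = 0.519), and Dnajc19 of the import motor by 0.48 ± 0.16 (adjusted p = 0.0578).

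The mitochondrial calls other than Hspa9 depended on few arrays. Dnaja3 did not pass without +/- LPS replicate 2 or 3 or -/- LPS replicate 1 or 3 (adjusted p 0.0742 to 0.136) nor after quantile or cyclic loess normalization (0.0615 and 0.109). Without the 2 male arrays 5 of the 8 were higher, with a median of 0.68, where 11.0% of all genes were higher. They were Hspa9, Dnaja3, Hspd1, Dnajc19 (adjusted p = 0.0395) and Dnajc30 (0.0306), while Dnajc15 did not pass (0.0904). Dnajc15 lost the call in 13 of 24 alternatives, among them without any 1 of the LPS arrays, +/- untreated replicate 1 or -/- untreated replicate 2 (0.0544 to 0.186). In untreated cells the same 8 genes had a median difference of 0.31, with 7 positive and none that passed.

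Of the 10 TRiC genes 9 had positive differences between -/- and +/- cells after LPS, with a median of 0.34. Among all genes with a mean signal of at least 6 the median was 0.17. Of the TRiC genes Cct4, the delta subunit, alone passed upwards, where 9.69% of all genes did. Cct4 read 9.89, 9.80 and 10.14 in -/- arrays, against 9.70, 9.43 and 9.29 in +/- arrays, groups that do not overlap, with a difference of 0.47 ± 0.14 (adjusted p = 0.0374). Tcp1, the alpha subunit, differed by 0.36 ± 0.15 and Cct2, the beta subunit, by 0.41 ± 0.16, neither past the threshold (adjusted p = 0.139 and 0.0939). Without the 2 male arrays 5 of the 10 were higher, where 11.0% of all genes were. They were Cct6a (0.74), Cct4 (0.58), Cct5 (0.55), Cct2 (0.53) and Tcp1 (0.49), with adjusted p of 0.0198 to 0.0402. The male +/- array read the highest of the 3 +/- LPS arrays for each of these 5. Cct4 lost the call without +/- LPS replicate 2 or 3, -/- untreated replicate 1 or -/- LPS replicate 1 or 3 (0.0562 to 0.172). Cct8l1, a dim relative of Cct8, went the other way at -0.44 ± 0.13 (adjusted p = 0.0283), and did not pass without +/- LPS replicate 2 or 3 or -/- LPS replicate 1 or 3 (0.0636 to 0.119).

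Of the 15 HSP70, HSP110 and HSP90 genes, Hspa9 and Hspa4l were higher in -/- cells after LPS and none was lower. Over all genes 9.69% were higher and 5.99% lower. Hspa4l was higher in -/- arrays at 7.10, 7.26 and 7.19, against 6.88, 6.46 and 6.37 in +/- arrays, a difference of 0.62 ± 0.19 (adjusted p = 0.0382). It did not pass without +/- LPS replicate 2 or 3 or any 1 of the -/- LPS arrays (0.0776 to 0.149), nor after quantile or cyclic loess normalization (0.44 and 0.43, adjusted p = 0.118 and 0.131). Hsp90aa1 read 11.53, 11.27 and 11.67 in -/- arrays, against 11.12, 10.62 and 10.78 in +/- arrays, which do not overlap, and its 0.65 ± 0.21 was at the threshold (adjusted p = 0.0506, and 0.0315 without the 2 male arrays). Hsph1 differed by 0.71 ± 0.25 (adjusted p = 0.0681). Hspa5 had the opposite sign, with 11.76, 11.71 and 11.89 in -/- arrays, against 12.16, 12.26 and 12.06 in +/- arrays, groups that do not overlap, at -0.37 ± 0.14 (adjusted p = 0.0931). Hspa8 differed by 0.10 ± 0.14 and Hsp90b1 by 0.14 ± 0.13, with intervals from -0.21 to 0.40 and from -0.13 to 0.42.

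**Figure D4:**
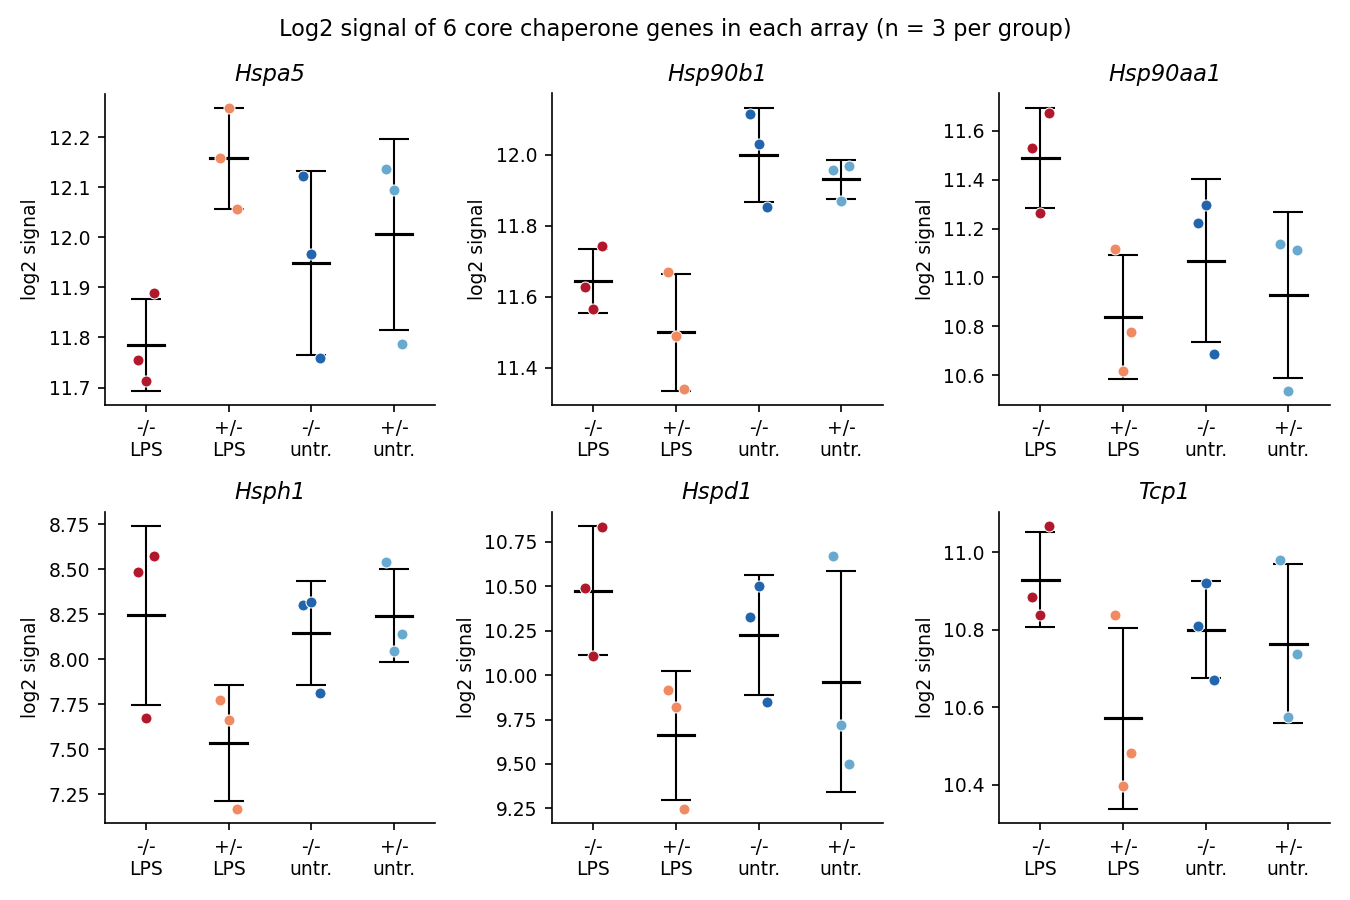
Log2 signal of Hspa5, Hsp90b1, Hsp90aa1, Hsph1, Hspd1 and Tcp1 in each array, with points for the 3 arrays of a group, a bar for the mean and whiskers for ± 1 SD, and the vertical axes not starting at 0. Hsp90aa1, Hsph1, Hspd1 and Tcp1 have their lowest means in Hdac3 +/- cells with LPS, where Hspa5 has its highest.

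In the ER, Dnajc10, a disulfide reductase of protein degradation, was higher in -/- arrays after LPS. It read 10.16, 9.76 and 10.15, against 9.69, 9.31 and 9.34 in +/- arrays, a difference of 0.57 ± 0.16 (adjusted p = 0.0287), and did not pass without +/- LPS replicate 2 or 3 or -/- LPS replicate 1 or 3 (0.0925 to 0.122) or after cyclic loess normalization (0.0608). Dnajc14, an ER membrane J protein that carries receptors outwards, was lower at -0.38 ± 0.12 (adjusted p = 0.0485), a call lost in 17 of 24 alternatives, among them without any 1 of the LPS arrays or the untreated -/- arrays or +/- untreated replicate 1 (0.0534 to 0.177). Dnajb6 was lower in -/- arrays, at 6.29, 6.89 and 6.34, against 7.64, 6.89 and 7.53 in +/- arrays. Its groups meet at 6.89, reached by -/- LPS replicate 2 and by +/- LPS replicate 2, and its difference of -0.85 ± 0.20 or 1.80-fold lower (adjusted p = 0.0114) did not pass without +/- LPS replicate 3 or -/- LPS replicate 1 or 3 (0.0571 to 0.0606). Hspb11, which despite its name is a subunit of the intraflagellar transport machinery, was higher by 0.50 ± 0.15 at a mean signal under 6 (adjusted p = 0.0408) and lost the call in 10 of 22 alternatives, among them without any 1 of the -/- arrays or +/- LPS replicate 2 or 3 (0.0511 to 0.163).

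**Figure D5:**
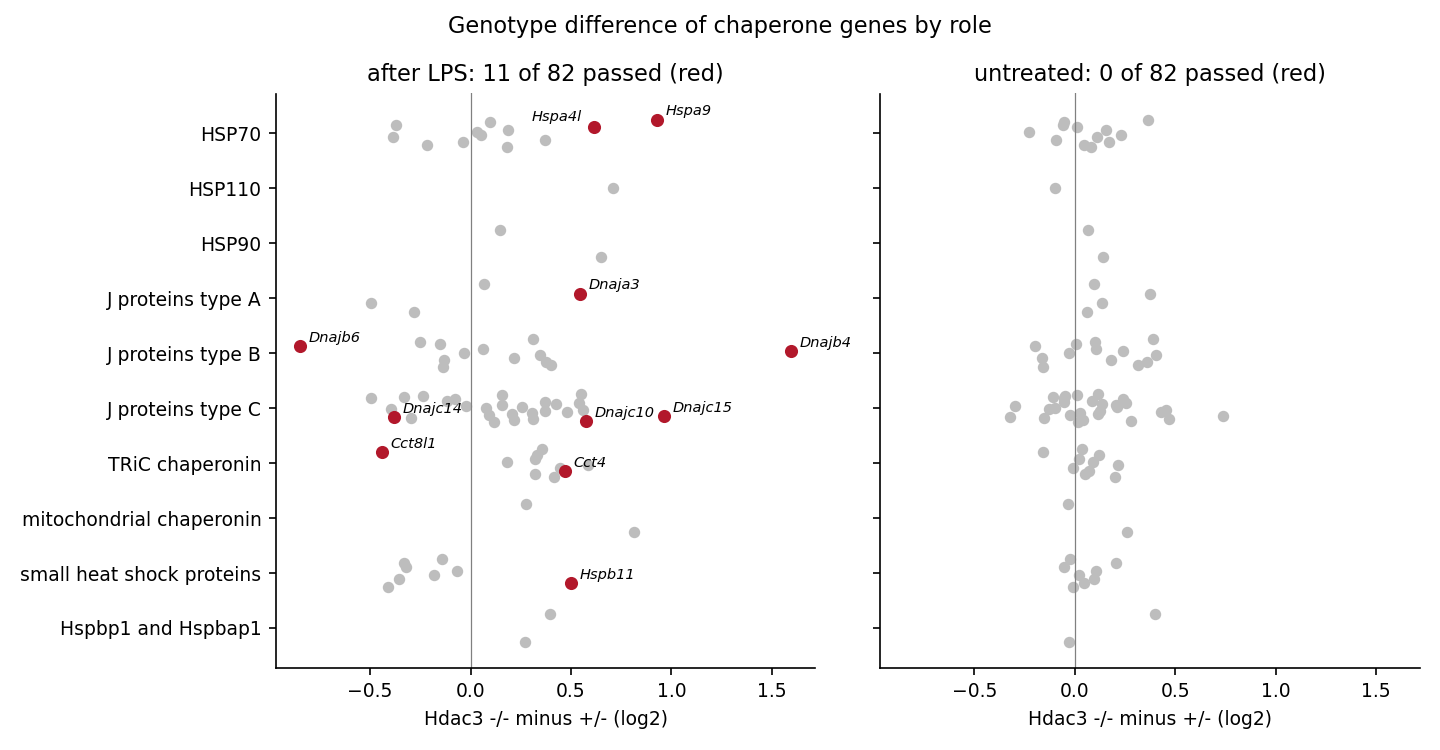
Genotype difference (Hdac3 -/- minus +/-, log2) of each of the 82 chaperone genes by role, after LPS (left) and untreated (right), with genes that passed in red and labelled. After LPS 11 genes passed, from Dnajb4 at 1.60 and Dnajc15 at 0.96 to Dnajb6 at -0.85, and untreated none did.

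The helpers of the chaperones were counted in the same way. Of 59 measured genes of 5 lists (cochaperones of HSP90 and HSP70, prefoldin, ER folding and unfolded protein response, mitochondrial folding and proteolysis, and heat shock factors) 1 rose and 2 fell with LPS in -/- cells (1.69% and 3.39%, against 3.69% and 5.18% of all genes), and 3 rose and 16 fell in +/- cells (5.08% and 27.1%, against 9.59% and 15.5%). Untreated, 2 were higher in -/- cells and 0 lower (3.39% and 0%, against 1.22% and 1.44%). After LPS 14 were higher and 1 lower (23.7% and 1.69%, against 9.69% and 5.99%), with a median of 0.29, against -0.04 over all genes. Among all genes with a mean signal of at least 6, 18.4% were higher and 9.85% lower after LPS, with a median of 0.17. With LPS in +/- cells 12.3% of such genes rose and 29.0% fell. Without the 2 male arrays 3 of the 59 helpers rose and 14 fell with LPS in +/- cells. Untreated 1 was then higher, and after LPS 16 were higher and 1 lower. Of the helper calls named below, Stip1 in +/- cells, P4hb untreated and Herpud1 after LPS did not pass without those arrays. With all arrays, in the interaction 0 of the 59 passed by limma, while 8 had an unadjusted p under 0.05, as had 2281 of all 19945 genes. These lists share their arrays with the chaperone genes, and no list was tested as a whole. Apart from the fit without the male arrays, alternatives are not given for the helper counts or for the helper genes named below.

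Sensors and degradation factors of the ER held the steepest falls, but the ER list did not move in 1 direction. Of its 21 genes 1 rose and 7 fell with LPS in +/- cells, at 9.59% and 15.5% of all genes. At a mean signal of at least 6, 29.0% of all genes fell there. In -/- cells 0 rose and 2 fell, at 3.69% and 5.18%. After LPS 3 were higher and 1 lower in -/- than in +/- cells, at 9.69% and 5.99%. Without the 2 male arrays Syvn1 rose in +/- cells, and Atf6 was lower in -/- cells after LPS. Eif2ak3, the kinase PERK, read 6.75, 6.68 and 6.91 with LPS, against 8.07, 7.83 and 7.94 untreated in -/- cells, and 6.23, 6.18 and 5.66 with LPS, against 7.98, 8.28 and 8.08 untreated in +/- cells. It fell in both, with differences of -1.17 ± 0.16 (adjusted p = 3.49e-04) and -2.09 ± 0.16 (adjusted p = 8.27e-07). Herpud1, a scaffold of ER-associated degradation, fell by 1.32 in +/- cells (adjusted p = 0.0079) and was 1.02 ± 0.32 higher in -/- than in +/- cells after LPS (adjusted p = 0.0458). Edem1, another degradation factor, fell in both too, with -0.74 ± 0.14 in -/- cells and -0.51 ± 0.14 in +/- cells (adjusted p = 0.0042 and 0.0165), and Ern1, the sensor IRE1, fell in +/- cells (-0.84 ± 0.17, adjusted p = 0.0026). P4hb, protein disulfide isomerase, was higher in -/- cells both after LPS, by 0.80 ± 0.14, and untreated, by 0.64 ± 0.14 (adjusted p = 0.0015 and 0.0235).

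Of the 7 mitochondrial helpers, 3 were higher and 0 lower in -/- cells after LPS, at 9.69% and 5.99% of all genes. At a mean signal of at least 6 the shares of all genes were 18.4% and 9.85%. Grpel1, the exchange factor of Hspa9, read 8.91, 8.53 and 9.04 in LPS-treated -/- arrays, against 8.06, 7.85 and 7.71 in +/- arrays, and 8.65 to 8.86 in untreated -/- arrays, against 7.90 to 8.17 in +/- arrays. It was higher in -/- cells in both states, by 0.95 ± 0.15 and 0.76 ± 0.15 (adjusted p = 9.72e-04 and 0.0162), and the genotypes do not overlap. Its relative Grpel2 fell with LPS in +/- cells (-0.88 ± 0.19, adjusted p = 0.004) and was 0.87 ± 0.19 higher in -/- cells after LPS (adjusted p = 0.0074). Clpp, the matrix protease, was 1.30 ± 0.26 higher in -/- cells after LPS (adjusted p = 0.0043). Of the 21 cochaperones, 2 rose and 7 fell with LPS in +/- cells, at 9.59% and 15.5% of all genes. At a mean signal of at least 6 these shares were 12.3% and 29.0%. In -/- cells 1 rose and 0 fell, at 3.69% and 5.18% of all genes. After LPS 7 were higher in -/- cells, Ahsa2, Ppp5c and Bag4 among them, and 0 lower. Over all genes 9.69% were higher, and 18.4% at a mean signal of at least 6. Stip1, which links HSP70 to HSP90, rose with LPS in both genotypes, by 0.80 ± 0.20 in -/- cells and 0.57 ± 0.20 in +/- cells (adjusted p = 0.0197 and 0.0477). Bag3, the HSP70 exchange factor that works with Hspb8, rose by 0.68 ± 0.15 in +/- cells (adjusted p = 0.0042), and Ahsa1, the activator of HSP90, fell by 0.81 (adjusted p = 0.0108). Hsf2, a heat shock factor, was 1.02 ± 0.31 higher in -/- cells after LPS (adjusted p = 0.0429).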

How the data were processed

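RNA of 12 macrophage cultures was hybridised to Affymetrix gene arrays. The authors deposited log2 expression values of 28193 probe sets, which per the submitters' processing notes came from RMA in affy, with no version named. RMA is meant to equalise the arrays and pulls low signals together. The deposited arrays still differed, with interquartile ranges of 3.19 to 3.80. Probe sets were named from the platform annotation: 21648 carried 1 symbol, 1313 several and 5232 none, and 9 probe sets of chaperone genes with several symbols were left out. The brightest probe set of each symbol was kept, which gave 19945 genes, and all 82 chaperone genes matched RefSeq by Entrez ID.

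Group means over all 12 arrays were fitted with limma 3.58.1 (lmFit and eBayes, R 4.3.3), with Benjamini-Hochberg adjustment over all genes within each of 5 comparisons. Tables and figures were made with Python 3.11.15, pandas 2.3.3, numpy 2.4.6 and matplotlib 3.10.9. Precision is limited by the number of arrays, as the median 95% interval of a chaperone gene reached 0.36 log2 units to either side, and 0.50 for the interaction. The fit was tested on simulated data.

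The named genes are, per comparison, up to 8 members a direction with the largest difference among those that passed with groups that do not overlap, up to 4 of each role that passed (otherwise the 2 with the smallest p), a set of core members, and up to 3 of each helper list; further genes were named after their values were seen. The members and lists were chosen with earlier results of these data known. Alternatives were quantile and cyclic loess normalization, minimum signals of 5 and 6, the mean over a gene's probe sets, array weights, eBayes with a trend or robust, only the 6 arrays compared, a replicate block and leaving out each array. The probe set placed at the gene and the fit without the 2 male arrays were added after seeing the data. Same-numbered arrays deviated together within Hdac3 +/- cells (r across genes 0.243, 0.327 and 0.223) but not within -/- cells (0.090, 0.195 and -0.122) or across genotypes (-0.472 to 0.155). Differently numbered arrays reached at most 0.107 within +/- cells, but 0.290 within -/- cells and 0.514 across genotypes. An r of this size therefore does not by itself show pairing. The numbers were taken to pair the +/- arrays alone, which the labels do not state. In the +/- LPS comparison the block gave 11 genes that rose and 12 that fell, against 8 and 10.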

Additional observations from a re-analysis of the deposited data

Results flagged for a closer look

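Dnajb4 was picked out because its LPS effect differed between the genotypes by a test of that difference itself. The LPS effect in Hdac3 -/- cells minus that in Hdac3 +/- cells was 1.35 ± 0.26 log2 units (SE, n = 3 arrays a group, adjusted p = 0.025 by limma), from an LPS effect of 0.60 in -/- cells and -0.75 in +/- cells. All 3 -/- arrays lay higher with LPS than untreated, and all 3 +/- arrays lay lower. The adjusted p over the alternatives that ended the call was 0.053 to 0.0837.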

How the results depend on the processing

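No called difference changed sign, and 10 of 34 calls of chaperone genes passed under every alternative run. In Hdac3 -/- cells 2 genes rose with LPS and 2 fell. Array weights gave 4 and 9, and leaving out single arrays gave 1 to 3 that rose and 0 to 3 that fell. Over all genes array weights gave 1800 and 2624, against 736 and 1033. Single arrays left out gave 521 to 790 and 576 to 1151 of all genes. For chaperone genes the fit of only the 6 arrays compared gave 5 that fell, as did the replicate block within genotype (5). Over all genes 1456 and 1361 fell in these fits. In +/- cells 8 chaperone genes rose and 10 fell. The fit of only the 6 arrays gave 4 that rose, and leaving out single arrays gave 4 to 8 that rose and 6 to 13 that fell, with the fewest without +/- untreated replicate 3 (4 and 6) or +/- LPS replicate 3 (6 fell). Over all genes 1912 rose and 3085 fell with all arrays, and 1271 rose in the fit of only the 6 arrays. Single arrays left out gave 1331 to 2598 that rose and 2246 to 3385 that fell over all genes. Between untreated genotypes the count of chaperone genes was 0 throughout by limma (8 at an unadjusted p under 0.05, against 2534 of all 19945 genes). After LPS 8 chaperone genes were higher and 3 lower in -/- cells. Array weights gave 17 higher, cyclic loess 3 (with 4 lower, so that the balance turned) and leaving out the 2 male arrays 17, and single arrays left out gave 2 to 14 higher and 0 to 4 lower. The fit of only the 6 arrays gave 1 lower. Over all genes 1932 were higher with all arrays, 2790 with array weights, 1240 after cyclic loess and 2203 without the male arrays. Single arrays left out gave 910 to 2176 higher and 775 to 1319 lower over all genes. The fit of only the 6 arrays gave 1044 lower over all genes, against 1195. The interaction, 1 gene, gave 0 with the replicate block and 0 without the 2 male arrays, and 0 to 1 without single arrays, and the members' median interaction was 0.08 as deposited and -0.01 after cyclic loess. The block over all 4 groups also ended the calls of Hspb7 with LPS in +/- cells (adjusted p = 0.0552) and, after LPS, of Dnajc15, Hspa4l, Hspb11 and Dnajc14 (0.0524 to 0.0687), and no other. The cause of these shifts was not tested. At 3 arrays a group the 95% interval lay within 2-fold of no difference for 65 to 81 of the 82 genes, depending on the comparison, so smaller changes than that were often not resolved.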
